A study of Mus musculus with 6 samples.

Results

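The enzymes described here are 5 genes of glycolysis and neighbouring carbon metabolism, measured by 8 probes of an array with 60915 probes apart from control spots and negatives. They are Gapdh, Pgk1, Gk, G6pd2 and Ldhal6b. The members were chosen by probe name: Gapdh, Gk, G6pd2 and Ldhal6b through the RefSeq accession printed beside a probe with 20 spots, and Gapdh and Pgk1 also through control spots called Mouse-GAPDH and Mouse-PGK1, with 10 spots for each of the ends named 3 and 5. The rule itself uses names and no measured value, although it was written with earlier results of these data known. The tumour group, called MB, was medulloblastoma cells dissociated from mice 4 months old, on arrays titled MB1, MB2 and MB915. The precursor group, called GNP, was cerebellar granule neuron precursors from mice 4 to 6 days old, on arrays titled GNPs1, GNPs3 and GNPs4. All animals were C57BL/6 with the transgene Tg(Neurod2-Smo*A1)199Jols/J, in which the Neurod2 promoter drives a constitutively active Smoothened, so the precursors carried the activated Hedgehog receptor component as well. Tumour and age differ together and cannot be told apart.

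Glycolysis splits glucose into pyruvate, and its later steps return energy as ATP and NADH. Glyceraldehyde-3-phosphate dehydrogenase (Gapdh) makes the high-energy phosphate that phosphoglycerate kinase (Pgk1) passes to ADP, and lactate dehydrogenases regenerate the NAD that Gapdh needs. Hedgehog signalling is known to drive aerobic glycolysis in granule neuron precursors and in the tumours that arise from them. Glucose-6-phosphate dehydrogenase opens the pentose phosphate branch, which yields NADPH and ribose, and glycerol kinase (Gk) brings glycerol into the triose pool and into lipid synthesis. Gapdh and Pgk1 are expressed in nearly every tissue. G6pd2 is an intronless retrocopy of the X-linked G6pdx gene known from male germ cells, and Ldhal6b is a lactate dehydrogenase-like gene known from the testis. Gk is found in many tissues, with most activity in liver and kidney.

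The stretches before the start sites of these genes are shown because they separate the widely expressed from the restricted members by base composition, a property the choice of members did not use. They are the 250 bases before each annotated start, credited to RefSeq on GRCm38.p6, 5′ to 3′, with capitals marking each match to GGGCGG (the GC box) or TATAAA (the TATA box) on either strand.
Gapdh: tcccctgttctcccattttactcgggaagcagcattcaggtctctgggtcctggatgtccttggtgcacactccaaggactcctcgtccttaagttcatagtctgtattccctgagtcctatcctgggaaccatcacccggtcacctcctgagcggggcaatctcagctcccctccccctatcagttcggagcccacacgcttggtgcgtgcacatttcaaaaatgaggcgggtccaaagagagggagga
Pgk1: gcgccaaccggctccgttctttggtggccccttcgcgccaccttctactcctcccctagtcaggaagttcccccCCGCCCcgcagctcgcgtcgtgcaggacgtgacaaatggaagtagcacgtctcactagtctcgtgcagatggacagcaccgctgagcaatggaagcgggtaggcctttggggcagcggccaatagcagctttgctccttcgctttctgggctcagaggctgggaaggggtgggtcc
Gk: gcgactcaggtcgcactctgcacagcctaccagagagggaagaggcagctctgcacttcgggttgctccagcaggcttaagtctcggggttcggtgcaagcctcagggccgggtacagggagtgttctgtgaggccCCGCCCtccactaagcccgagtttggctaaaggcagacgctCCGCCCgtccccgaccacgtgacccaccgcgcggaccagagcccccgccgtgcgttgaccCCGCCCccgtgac
G6pd2: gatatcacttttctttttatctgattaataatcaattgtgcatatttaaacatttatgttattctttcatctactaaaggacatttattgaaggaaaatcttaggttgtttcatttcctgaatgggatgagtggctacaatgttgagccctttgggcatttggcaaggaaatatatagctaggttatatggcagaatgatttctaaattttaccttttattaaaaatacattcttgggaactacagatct
Ldhal6b: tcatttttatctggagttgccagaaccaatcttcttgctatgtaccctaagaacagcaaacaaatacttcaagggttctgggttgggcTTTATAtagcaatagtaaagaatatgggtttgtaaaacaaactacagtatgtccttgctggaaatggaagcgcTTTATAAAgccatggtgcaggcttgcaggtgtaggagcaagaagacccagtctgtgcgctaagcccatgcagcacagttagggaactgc
These lie at chr6:125165774-125166023 (minus strand) for Gapdh, chrX:106186850-106187099 (plus strand) for Pgk1, chrX:85776820-85777069 (minus strand) for Gk, chr5:61808593-61808842 (plus strand) for G6pd2 and chr17:5418768-5419017 (minus strand) for Ldhal6b. The G6pd2 window held 30.0% G and C with 0 CG dinucleotides, and the Ldhal6b window 43.6% with 2. The windows of Gapdh, Pgk1 and Gk held 55.6%, 62.8% and 67.2% G and C, with 8, 17 and 21 CG dinucleotides. Over all 32851 windows of the table the medians were 52.4% and 6. The letters GGGCGG or CCGCCC were present 1 time for Pgk1 and 3 times for Gk, but 0 times for Gapdh, as for G6pd2 and Ldhal6b. They are held by 32.7% of all windows, and did not separate the widely expressed from the restricted members. TATAAA or TTTATA matched 3 times before Ldhal6b, where 2 matches overlap, and is held by 12.4% of all windows. G6pd2 also shares sequence with G6pdx near the start sites. Over windows of 300 bases that run 50 bases past each start, the longest run shared by G6pd2 and G6pdx was 27 bases, and with 1 mismatch it went on for 35 bases to the end of the G6pdx window. The longest run that any of the other members shared with its named paralog (Pgk2, Ldha, Gapdhs or Gk2) was 8 bases. Sequences of the array probes themselves were not used here, so whether the G6pd2 probe also binds G6pdx RNA, or the Ldhal6b probe RNA of other lactate dehydrogenases, was not tested.

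All 8 probes gave signal on every array. Their 120 spots per array came to 720 spots in all, each of them marked well above background by the scanner software, with 0 saturated and 37 set aside as outliers. Of the spots named as negatives, 2.67% to 8.0% per array carried that mark. The probes named for the restricted members were thus above background in both groups. Signals are given for each array before scaling, and levels after it, as log2 units relative to the array's 75th percentile of signal, a percentile that ran from 213 to 321 over the arrays. Levels are not compared between probes of different genes, because probes differ in how well they bind. Ratios between probes of the same gene are given per array and compared only between arrays.

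Arrays were compared before averaging. The scaled median absolute deviation per array of the difference between MB1 and MB2 was 0.060 log2 units over 15330 bright probes, 1.40 times the mean SD of 0.043 among repeated spots. Between GNPs1 and GNPs4 it was 0.041, or 0.955 times. All other pairs within a group lay between 7.10 and 13.4 times. Over these bright probes, GNPs1 and GNPs4 thus differed by less than the spot noise and MB1 and MB2 by little more than it. Among the 8 members, MB1 minus MB2 ran from -0.19 for the Gapdh probe to 0.23 for the Gk probe. GNPs1 minus GNPs4 ran from -0.08 for the Gk probe to 0.09 for Mouse-GAPDH_5. The standard error over spots was at most 0.014 for the Gapdh probe and 0.074 for Gk, so MB1 and MB2 differed by more than that at both. Each pair was averaged and counted as 1 sample. This leaves 2 samples per group, a count that rests on the values and not on the labels. MB1 and GNPs4 were scanned at a separate time (scan 2) from the other 4 arrays (scan 1), and scan time is the batch used here. The study's design speaks of 3 paired cases of tumour and precursor cells, but the array titles do not show the pairs, so the fits are unpaired. The labels do not tie arrays to individual mice, so the spread behind each p-value is that among 4 samples and may be technical. None of 34 marker genes of cerebellar, glial, immune, vascular or testis cells had a named probe, so the labelled cell types could not be checked against markers. In such bulk samples, fewer cells of a type and less RNA per cell cannot be told apart.

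The tumours and precursors were compared to ask which of these enzyme transcripts differ between them. None of the 8 probes passed in limma at a Benjamini-Hochberg adjusted p under 0.05. By that rule 0% of the 40736 features tested were called, so the absence of calls is not particular to the enzymes. At an unadjusted p under 0.05, 0 of the 8 members stood against 11.2% of all features (4560). Of the 8 members 4 were higher and 4 lower in MB, with a median difference of 0.12 log2 units, against 0.08 over all features tested. Their median absolute difference was 0.31, against 0.41 over all features. At 3 of the 8 probes the 2 MB samples lay on one side of both GNP samples, while 47% of all features did so. Such separation was thus not more common among the enzymes than over all features tested. Those features include probes well above background in only 1 group, unlike the members, and the share without them is not given here. In 2 of the 3 separated members MB was higher, as for 28.2% of all features, and in 1 lower, as for 18.8%. Over the 6 arrays taken singly the same 3 probes did not overlap, against 42.2% of all features. The probe with the greatest difference of the 8 was the Pgk1 control named for end 5, the 1 member past 2-fold, where 17.4% of all features were at least 2-fold apart and 8.88% were at least 2-fold lower in MB.

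**Figure D1:**
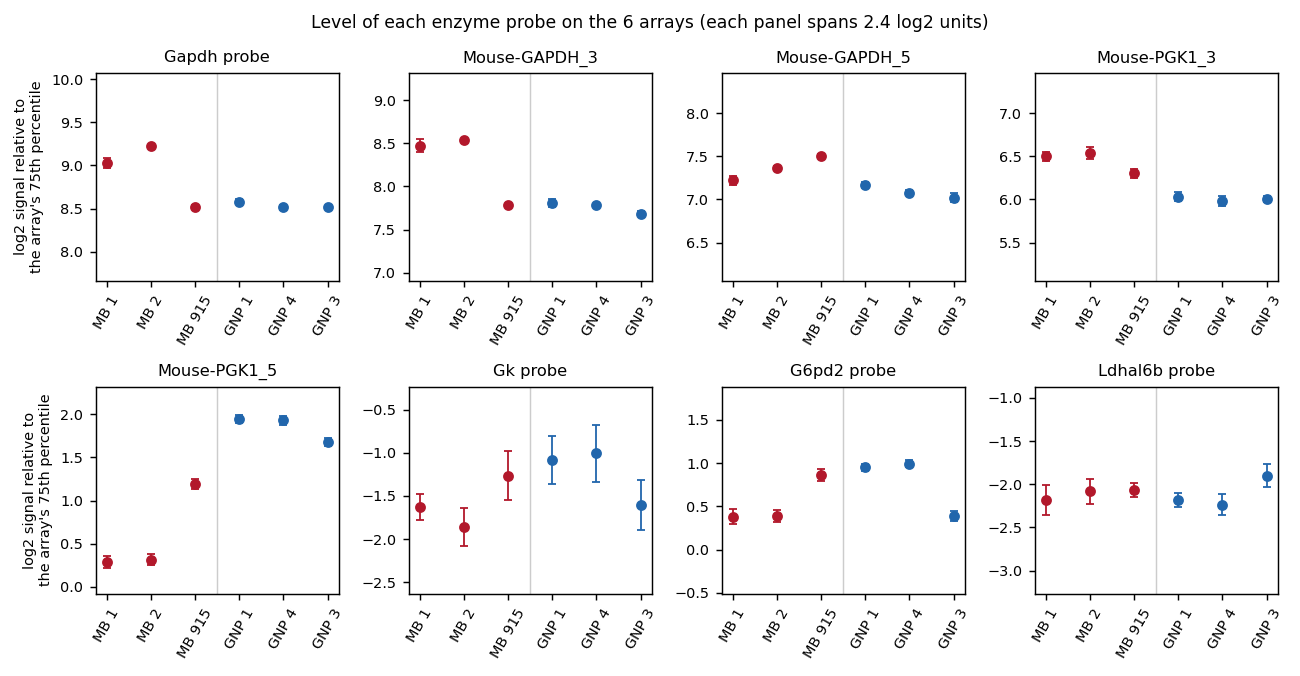
Level of each of the 8 probes on each array, in log2 signal relative to the array's 75th percentile. Points are means over spots, bars are the SD over spots (10 or 20 spots), red is MB and blue is GNP. For Mouse-PGK1_5 the 3 MB arrays lie between 0.29 and 1.19 and the 3 GNP arrays between 1.68 and 1.95.

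Gapdh, the glycolytic enzyme often used as a reference transcript, did not show a common direction in the 2 MB samples on its 20-spot probe. The signal was 111674 in MB1, 136435 in MB2 and 117815 in MB915, against 116625 in GNPs1, 104367 in GNPs3 and 106541 in GNPs4. After scaling, the probe stood at 9.13 in the mean of MB1 and MB2 and at 8.52 in MB915, against 8.55 in the mean of GNPs1 and GNPs4 and 8.52 in GNPs3. The pair of MB1 and MB2 was thus high, and MB915 lay between the precursors. The group means were 8.82 ± 0.43 in MB and 8.53 ± 0.023 in GNP (SD, n = 2 each), giving a difference of 0.29 (SE 0.34, limma adjusted p 0.75). The MB samples lay farther apart than the GNP samples did: MB915 minus the mean of MB1 and MB2 was -0.61, and GNPs3 minus the mean of GNPs1 and GNPs4 was -0.03. Without MB915 the difference was 0.60, and with MB1 and MB2 left out it was -0.01. Median scaling, quantile normalization and the authors' normalized table gave 0.15, 0.15 and 0.16.

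The Gapdh control spots named for end 3 repeated this pattern, and those named for end 5 did not. Mouse-GAPDH_3 stood at 8.51 in MB1 and MB2 and 7.79 in MB915, against 7.79 in GNPs1 and GNPs4 and 7.68 in GNPs3, a difference of 0.41 (SE 0.36, limma adjusted p 0.681). MB915 again lay within the precursor range. The difference was 0.77 without MB915, 0.05 with MB1 and MB2 left out, and 0.18 both under quantile normalization and in the authors' normalized table. Mouse-GAPDH_5 stood at 7.29 and 7.50 in the same MB samples, against 7.12 and 7.02 in the GNP samples, a difference of 0.33 (SE 0.28, limma adjusted p 0.672). Its signals before scaling were 31820, 37566 and 58243 in MB1, MB2 and MB915, against 43832, 36996 and 39374 in GNPs1, GNPs3 and GNPs4. MB1 was thus the lowest array before scaling. The 75th percentile used for scaling was 213 in MB1, 229 in MB2 and 321 in MB915, against 285 to 305 on the GNP arrays. After scaling, MB915 was the highest of the 4 samples and the groups did not overlap. That separation was lost under median scaling, under quantile normalization and in the authors' normalized table, although the difference stayed positive at 0.18 to 0.19. At all 3 Gapdh probes the MB mean was thus above the GNP mean, but the probes differ on which tumour sample was high. The limma intervals reached down to -0.61 for the Gapdh probe, -0.57 for Mouse-GAPDH_3 and -0.43 for Mouse-GAPDH_5. A lower level in MB is therefore not excluded. These probes read the same gene in the same samples and are not independent. The log2 ratio of the Gapdh probe to Mouse-GAPDH_3 was 0.56 to 0.73 on MB arrays and 0.73 to 0.83 on GNP arrays, with a group difference of -0.12. Against Mouse-GAPDH_5 this ratio was 1.81 and 1.86 in MB1 and MB2 and 1.02 in MB915, while the GNP arrays lay between 1.41 and 1.50.

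Pgk1, the first ATP-producing enzyme of the pathway, gave opposite differences at its control spots. Mouse-PGK1_3 had signals of 19257, 21266 and 25330 in MB1, MB2 and MB915, against 19912, 18320 and 18403 in GNPs1, GNPs3 and GNPs4. Its levels were 6.52 in MB1 and MB2 and 6.30 in MB915, against 6.01 and 6.00 in the GNP samples. Both tumour samples were above both precursor samples, which nearly coincided. The difference was 0.40 (SE 0.28, limma adjusted p 0.618), or 1.32-fold. The groups stayed apart under each of the scalings and background corrections tried, with differences of 0.26 to 0.40.

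Mouse-PGK1_5, the spots named for the other end, was lower in the tumours without passing the test. Its signals were 261, 285 and 734 in MB1, MB2 and MB915, against 1177, 913 and 1110 in GNPs1, GNPs3 and GNPs4. The level was 0.30 in the mean of MB1 and MB2 and 1.19 in MB915, against 1.94 in the mean of GNPs1 and GNPs4 and 1.68 in GNPs3. All 3 MB arrays were below all 3 GNP arrays, with MB915 between the other MB arrays and the precursors, 0.49 below the nearest precursor sample. The group means were 0.75 ± 0.63 in MB and 1.81 ± 0.19 in GNP (SD, n = 2 each), giving a difference of -1.06 (SE 0.41, 95% interval -2.16 to 0.04, unadjusted p 0.0561 and adjusted p 0.459 in limma). Among all features tested, 84.3% had a smaller absolute difference. The spot SD within an array was at most 0.07. MB915 minus the mean of MB1 and MB2 was 0.89, where the median size of that difference over all features was 0.50. With the 6 arrays taken as separate samples the difference was -1.25 and passed in limma (adjusted p 0.0413), where 12.9% of all features were called. That fit counts each near-identical pair as 2 samples. With the scan added as a fixed block to those 6 arrays the limma adjusted p was 0.0853, and with the repeat pairs as a random block, without and with a scan term, it was 0.293 and 0.427. Using only the scan 1 arrays, which cover all 4 samples, the difference was -1.06, and using only scan 2, with 1 array per group that nearly repeats one of scan 1, it was -1.64. The difference stood at -1.50 without MB915 and at -0.62 with MB1 and MB2 left out.

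**Figure D2:**
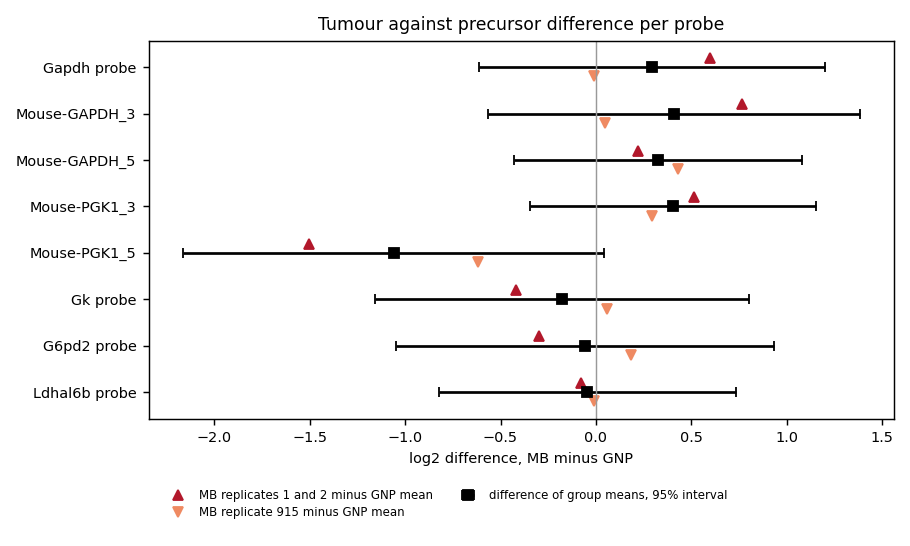
Difference MB minus GNP for each of the 8 probes in log2 units. Squares are the differences of group means with their 95% intervals from limma (n = 2 samples per group), and triangles give each MB sample minus the GNP mean. All intervals include 0, and Mouse-PGK1_5 reaches from -2.16 to 0.04.

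The ratio of the end 3 to the end 5 spots needs no scaling between arrays. For Pgk1, end 3 minus end 5 was 6.21, 6.22 and 5.11 log2 units in MB1, MB2 and MB915, against 4.08, 4.33 and 4.05 in GNPs1, GNPs3 and GNPs4. Every MB array was above every GNP array, the lowest by 0.78. The group means differed by 1.47, a 2.76-fold change of the ratio, and an exact two-sided permutation test over the 4 samples gave p = 0.333, the smallest that 2 samples against 2 allow. The group difference of this ratio was 2.02 without MB915 and 0.91 with MB1 and MB2 left out. For Gapdh, end 3 minus end 5 was 1.25, 1.18 and 0.28 in MB1, MB2 and MB915, against 0.64, 0.67 and 0.70 in GNPs1, GNPs3 and GNPs4. The MB samples thus lay on either side of the precursors, and the group difference of 0.08 had an exact two-sided permutation p of 1. Without MB915 it was 0.55, and with MB1 and MB2 left out -0.38. MB1 and MB2 therefore had higher end ratios than the precursors for both genes, and MB915 for Pgk1 but not for Gapdh. These ratios show unequal change of the paired spots and not which of them changed. Per the labels' protocols the RNA was amplified by random priming along the transcripts. RNA integrity values per sample were not used here, so the part of RNA quality in these ratios was not tested.

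**Figure D3:**
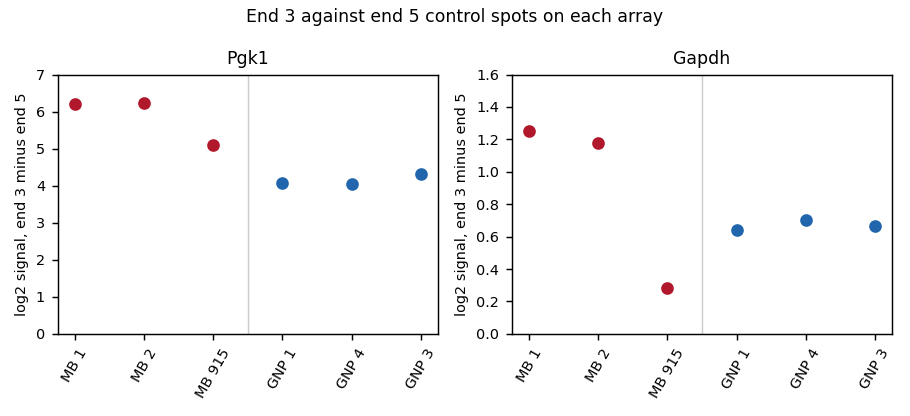
End 3 minus end 5 of the mouse control spots on each array, in log2 units, for Pgk1 (left) and Gapdh (right), with MB in red and GNP in blue. For Pgk1 the MB arrays lie between 5.11 and 6.22 and the GNP arrays between 4.05 and 4.33, and for Gapdh the GNP arrays lie between MB915 and MB1 and MB2.

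Gk, glycerol kinase, and G6pd2, the retrocopy of glucose-6-phosphate dehydrogenase, overlapped between the groups and followed nearly the same pattern. The Gk probe had signals of 68.9, 63.0 and 134 in MB1, MB2 and MB915, against 144, 93.8 and 145 in GNPs1, GNPs3 and GNPs4. Its level was -1.74 in MB1 and MB2 and -1.26 in MB915, against -1.05 in GNPs1 and GNPs4 and -1.60 in GNPs3. The group difference was -0.18 (SE 0.37, limma adjusted p 0.858). The G6pd2 probe had signals of 277, 299 and 584 on the same MB arrays, against 589, 373 and 580 on the GNP arrays. Its level was 0.38 in MB1 and MB2 and 0.86 in MB915, against 0.97 in GNPs1 and GNPs4 and 0.39 in GNPs3. The difference between groups was -0.06 (SE 0.37, limma adjusted p 0.960). For both probes, GNPs1 and GNPs4 and MB915 were high, and GNPs3 and MB1 and MB2 were low, so the samples of 1 group differed by more than the groups did. MB915 minus the mean of MB1 and MB2 was 0.48 for each gene, where the median size of that difference over all features was 0.50. GNPs3 minus the mean of GNPs1 and GNPs4 was -0.56 for Gk and -0.59 for G6pd2, where the median size was 0.31. With MB1 and MB2 left out the Gk difference was 0.06 and that of G6pd2 0.18, and with GNPs1 and GNPs4 left out they were 0.10 and 0.24, so no direction is given for either gene. The SD among the Gk spots of an array was 0.15 to 0.33.

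Ldhal6b, the lactate dehydrogenase-like gene, overlapped between the groups. Its signals were 46.9, 54.0 and 76.6 in MB1, MB2 and MB915, against 67.1, 76.3 and 61.8 in GNPs1, GNPs3 and GNPs4. Its levels were -2.13 in MB1 and MB2 and -2.07 in MB915, against -2.21 in GNPs1 and GNPs4 and -1.90 in GNPs3. The MB samples lay between the GNP samples. The difference was -0.04 (SE 0.29, 95% interval -0.82 to 0.73, limma adjusted p 0.960). It stood at -0.19 under median scaling, -0.16 under quantile normalization and -0.14 in the authors' normalized table, and turned to 0.05 with normexp background correction and to 0.11 without GNPs3, so no direction is given. An interval of that width does not show that the level was the same.

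Set side by side, the 5 probes of the widely expressed genes had differences of -1.06 to 0.41, 4 of them positive, and 3 of the 5 did not overlap between groups, where 47% of all features did not. Only 2 of them did not overlap under median scaling, quantile normalization and in the authors' normalized table. The probes of the restricted genes G6pd2 and Ldhal6b had differences of -0.06 and -0.04 and overlapped, as did Gk. The limma intervals of the restricted probes ran from -1.05 to 0.94 for G6pd2 and from -0.82 to 0.73 for Ldhal6b. Both include the differences found for the Gapdh probes and Mouse-PGK1_3. The difference of Mouse-PGK1_5, -1.06, lay outside both, though only just for G6pd2. The limma interval of Mouse-PGK1_5 itself, -2.16 to 0.04, includes the differences of both restricted probes. The classes were not tested against each other, so a difference between them is not shown. The 5 widely expressed probes belong to 2 genes and are not independent. In 7 of the 8 probes MB915 lay nearer to the GNP mean than MB1 and MB2 did, while 62.6% of all features showed this.

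**Figure D4:**
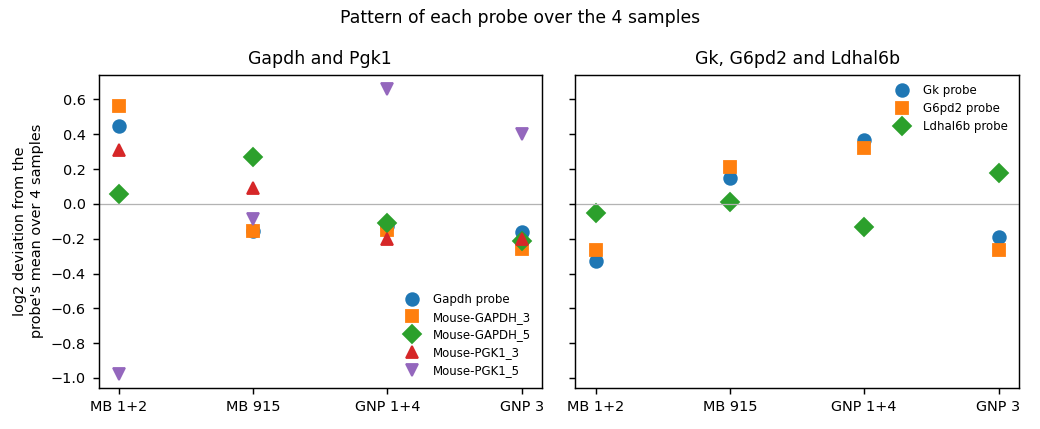
Deviation of each probe from its own mean over the 4 samples, in log2 units, for Gapdh and Pgk1 (left) and for Gk, G6pd2 and Ldhal6b (right). Gk and G6pd2 lie together in all 4 samples, and Mouse-PGK1_5 runs opposite to the other Gapdh and Pgk1 probes in MB1 and MB2.

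The likeness of patterns was measured among the genes that the array names by accession, 15 in all, as the root mean square difference over the 4 samples after each probe's mean was removed. It describes 4 values and carries no test. Nearest to Gk was G6pd2, at 0.06 log2 units. The next nearest to Gk was Nono, an RNA-binding protein, at 0.29, farther than the deviation of Gk from a flat line, 0.28. For G6pd2 the nearest after Gk was likewise Nono, at 0.24, against 0.27 from a flat line. Nearest to the Gapdh probe were Hprt, a purine salvage enzyme, at 0.06 and Ppia, a peptidyl-prolyl isomerase, at 0.10. Mouse-GAPDH_3 was likewise nearest to Hprt, at 0.11, then Tuba1b, a tubulin, at 0.16, whereas Mouse-GAPDH_5 was nearest to Nono at 0.07, then Tuba1b at 0.23, and Tuba1b was thus farther than its deviation from a flat line, 0.18. Mouse-PGK1_3 was nearest to Ppia at 0.13, then Tuba1b at 0.15. Mouse-PGK1_5 had no close neighbour: Gk stood at 0.48 and Tbp, the TATA-binding protein, at 0.51, with its own deviation from a flat line at 0.62. For Ldhal6b, Ppia at 0.22 and Tfrc, the transferrin receptor, at 0.27 were both farther than its own deviation from a flat line, 0.11. Of 50 genes listed for glycolysis, the pentose phosphate branch and related steps, only these 5 had a probe with a gene name, so the rest of the pathway was not analysed here.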

How the data were processed

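RNA of 3 MB and 3 GNP arrays was measured on a 1-colour (Cy3) Agilent mouse lncRNA array. The spot intensity values in the authors' scanner files came from Feature Extraction 11.0.1.1, per the file headers, with background subtracted within each array. The authors also deposited a normalized table, whose values fit a log2 scale. Its columns all have medians of 5.50, so they were brought to a common level by a step not given in the sources used here. Samples were depleted of rRNA and amplified by random priming, per the labels' protocols.

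Here, processed signals were put on the log2 scale, spots marked as outliers were set aside (134 to 293 per array), and spots of a probe were averaged. Each array was then centred on its 75th percentile among probes other than controls and negatives. Probes entered the test if all arrays of either group showed them well above background, to which the mouse Gapdh and Pgk1 control spots were added, and 155 probes with no usable spot in a sample were dropped. All 8 members were well above background on all 6 arrays, so none entered through 1 group only. MB1 and MB2, and GNPs1 and GNPs4, were averaged, which gave 4 samples. The group comparison used lmFit and eBayes of limma 3.58.1 in R 4.3.3, two-sided, with Benjamini-Hochberg adjustment over all features. The code of the fit was run on simulated data with known changes. The power at the spread of these samples is not given here. Accessions of 15 probes were matched without versions to RefSeq symbols of GRCm38.p6, and all 15 matched.

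The members, lists and tests were chosen with earlier results of these data known. All members are named, and for each the 2 genes most alike in pattern among those with accessions. Alternatives covered scaling, normexp with an offset of 50 on median signals, the authors' table, filters, flags, spot medians, scan time, repeat pairs, variance models and left-out arrays. A fit with the scan time as a fixed block on 6 arrays, and end ratios from the authors' table, were added after seeing the data. The number of arrays limits the precision.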

Additional observations from a re-analysis of the deposited data

Results flagged for a closer look

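Control spots named for human and rat versions of GAPDH and PGK1 are not members, and their values were looked at after those of the mouse spots. At 3 of these 8 names both MB samples lay above both GNP samples, as they did for 28.2% of all features tested. The difference, MB minus GNP, was 0.46 log2 units for Human-PGK1_3, 0.37 for Human-GAPDH_3 and 0.50 for Rat-GAPDH_3. At Human-PGK1_5 and Rat-PGK1_5 both MB samples lay below both GNP samples, as they did for 18.8% of all features tested. Their differences were -1.08 and -1.08, beside -1.06 for Mouse-PGK1_5. Human-GAPDH_5 and Rat-GAPDH_5 overlapped between the groups, at -0.04 and -0.12. Rat-PGK1_3 also overlapped, at 0.35, and was well above background at only 2 to 9 of its 10 spots per array. How far these spots bind the same mouse transcripts as the mouse spots was not tested, so they are not independent repeats.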

How the results depend on the processing

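No member passed in limma under any alternative that gave a test, except Mouse-PGK1_5 with 6 arrays as separate samples (-1.25, adjusted p 0.0413); over its alternatives the adjusted p ran from 0.0413 to 0.999. Over all features, 0 were called with 4 samples (4560 at an unadjusted p under 0.05), 1 under median scaling, 5243 with 6 separate arrays, 1850 with the scan as a fixed block on those, 208 when repeat pairs formed a random block and 4 when a scan term joined them. Leaving out arrays gave 0 to 1. Median scaling moved the median difference of all features from 0.08 to -0.07, and no member changed sign with it. On scan 2 alone, with 1 array per group and no test, differences were 0.14 for Mouse-GAPDH_5, 0.52 for Mouse-PGK1_3, -1.64 for Mouse-PGK1_5, -0.62 for Gk, -0.61 for G6pd2 and 0.053 for Ldhal6b, the last a turned sign. Ldhal6b was also positive, at 0.047, with normexp. With arrays or samples left out, the ranges were -0.012 to 0.60 for the Gapdh probe, -0.46 to 0.10 for Gk, -0.35 to 0.24 for G6pd2 and -0.20 to 0.11 for Ldhal6b. The Gapdh end ratio difference ran from -0.38 to 0.55, and was -0.0067 in the authors' normalized table. The cause of these changes was not tested. A group left with 1 sample was assumed to vary like the other group. No paired analysis was possible because the groups share only replicate number 1, although the study's design speaks of 3 paired cases; a pairing in the samples is therefore not used in any p-value.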
